A study of Mus musculus with 60 samples.

Results

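The results below concern 35 microglial genes out of 35889 genes quantified in RNA-seq libraries of sorted mouse neurons. The genes were listed by symbol after earlier results of the same libraries were known, and the contrast between tdTomato-positive and tdTomato-negative libraries, with the naive libraries beside it, is what singled them out. Their levels in that contrast, and the counts past a threshold given for it, are therefore a description and support nothing. They were grouped by role into 9 homeostatic genes, 3 complement genes, 6 lysosomal genes, 5 phagocytosis genes, 9 immune signalling genes and 3 transcription factor genes. All 35 passed the filter on low counts in both regions, and none was at 0 in any of the 48 libraries of the sorted populations.

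The study asked how neurons active during the seeking of cocaine differ from neurons active during the seeking of sucrose. All mice were Ai14xFosiCre animals, in which a tamoxifen-inducible Cre recombinase is expressed from the Fos locus and switches on a tdTomato reporter, and all carried the label Dual Cocaine and Sucrose Self-Administration. Mice that were trained were 8 to 16 weeks old at surgery. Cells active at cocaine-cued reinstatement, when 4-hydroxytamoxifen was given, kept tdTomato, and cells active at the later sucrose-cued reinstatement were stained for cFos protein. NeuN-positive cells were sorted from papain-dissociated punches of medial prefrontal cortex (mPFC) or nucleus accumbens (NAc) into 4 populations. The overlapping population carried tdTomato and cFos, the cocaine-seeking population tdTomato alone, the sucrose-seeking population cFos alone and the non-ensemble population neither. The first pair is called tdTomato-positive below, and the second pair tdTomato-negative. Each population was sorted from 3 pools of 3 mice per sex and region, which gave 6 libraries per population and region, and the 4 populations of a pool came from the same animals. A further 12 libraries, 6 per region, were labelled naive. What naive stands for is not given in the sources used here, and the treatment label of these libraries was that of the others.

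Microglia are the resident macrophages of the brain. At rest they are held in a homeostatic state that depends on the CSF1 receptor, and they are recognised by purinergic receptors such as P2ry12 and by the surface protein Tmem119. They make most of the C1q of the brain, the recognition molecule of the classical complement pathway, which marks synapses for removal, and they digest what they engulf with cathepsins in the lysosome. Neurons do not normally make the homeostatic markers, whereas cathepsin D, legumain and integrin beta 5 are made by several brain cell types.

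Promoters were looked at for what the members share in sequence, a property that the choice of genes did not use. RefSeq promoters (GRCm38.p6, 250 bases before to 50 bases after the start) matched 25 of the 35 members. The motif GAGGAAGT, the core bound by PU.1, the macrophage factor encoded by Spi1, was searched on both strands. It was found in 4 of the 25 promoters, or 16% of them, against 3.69% of 27025 genes with a promoter in the same table. The shorter AGGAAGT, which the longer motif contains, was found in 9 of 25 (36%) against 10.7% of all genes. A composite element of PU.1 and IRF factors was found in 1 of 25 (4%, Cd68) against 3.16%. The 4 promoters with the longer motif are shown because they join a lysosomal, a complement and 2 signalling members. Capitals mark the motif, which reads ACTTCCTC where it lies on the other strand.
Those of Ctss (chr3:95526536-95526835, plus strand), C1qc (chr4:136892865-136893164, minus strand), Inpp5d (chr1:87620062-87620361, plus strand) and Cd53 (chr3:106790100-106790399, minus strand) run 5′ to 3′ along the gene.
Ctss: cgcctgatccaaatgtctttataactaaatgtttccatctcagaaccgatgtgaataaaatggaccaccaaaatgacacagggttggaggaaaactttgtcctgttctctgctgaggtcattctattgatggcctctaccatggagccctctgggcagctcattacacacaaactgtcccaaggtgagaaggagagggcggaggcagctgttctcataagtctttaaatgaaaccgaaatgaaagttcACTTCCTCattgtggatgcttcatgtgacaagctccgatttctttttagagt
C1qc: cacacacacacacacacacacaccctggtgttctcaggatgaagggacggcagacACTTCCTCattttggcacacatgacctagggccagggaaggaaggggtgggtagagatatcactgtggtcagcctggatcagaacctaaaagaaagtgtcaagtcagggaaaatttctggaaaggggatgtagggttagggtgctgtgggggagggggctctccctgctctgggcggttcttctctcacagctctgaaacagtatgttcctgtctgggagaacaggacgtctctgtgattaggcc
Inpp5d: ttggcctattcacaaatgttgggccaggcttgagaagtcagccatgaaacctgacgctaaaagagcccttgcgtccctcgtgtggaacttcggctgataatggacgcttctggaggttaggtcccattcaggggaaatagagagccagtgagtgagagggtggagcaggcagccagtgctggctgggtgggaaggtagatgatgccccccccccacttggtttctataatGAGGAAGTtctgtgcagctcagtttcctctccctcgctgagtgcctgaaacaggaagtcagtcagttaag
Cd53: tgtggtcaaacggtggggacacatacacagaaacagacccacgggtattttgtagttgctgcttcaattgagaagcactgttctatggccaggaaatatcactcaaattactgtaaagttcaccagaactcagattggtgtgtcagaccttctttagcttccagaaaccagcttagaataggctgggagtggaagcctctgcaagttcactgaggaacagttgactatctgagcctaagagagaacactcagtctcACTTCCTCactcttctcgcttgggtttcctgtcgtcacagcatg
The match begins 2 bases before the start in Ctss, which encodes cathepsin S, and runs across it. In Inpp5d, which encodes the phosphatase SHIP1, the match begins 20 bases before the start. It begins 195 bases before the start in C1qc, a chain of C1q, and 7 bases after it in the tetraspanin gene Cd53. A match describes letters in the sequence and is no evidence of binding.

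Levels are CPM, counts relative to the total of the library, scaled with TMM factors over all 60 libraries. Where 3 values are given for a group, they are its lowest, median and highest library. Total counts ran from 9933361 to 24500899 in the 48 libraries (median 13723715) and from 29238727 to 45299753 in the naive ones. Several libraries went against their labels. The counts of members in the mPFC tdTomato, cFos, interaction and sucrose-seeking comparisons and in the region difference are therefore also given for male pools 1 and 3 alone, whereas mPFC levels, sums, the sex tests and the naive comparisons include all libraries. Libraries labelled female from pool 2 held the Y-linked gene Ddx3y at 12.2 to 20.5 CPM, against 0.0664 to 2.27 in the other female pools and 15.7 to 45.1 in the male libraries. The cortical glutamatergic gene Slc17a7 lay at 17.5 to 80.8 CPM in the female mPFC libraries and at 34.0 to 40.1 in those of male pool 2, but at 267 to 657 in the other male mPFC libraries, and at 128 to 592 in the NAc. A list of striatal neuron genes summed to 2779 to 3287 CPM in mPFC male pool 2 and 1221 to 2969 in female mPFC libraries. It summed to 501 to 1873 CPM in mPFC male pools 1 and 3, and 2203 to 5547 in the NAc. Cortical neuron genes other than Slc17a7 had a median sum of 199 CPM in the NAc and 94.9 in the mPFC. In mPFC male pools 1 and 3 that median was 287 CPM. Rbfox3, which encodes the sorted antigen NeuN, was at 190 to 314 CPM in the NAc and 92.7 to 223 in the mPFC. Fos mRNA did not separate cFos-positive libraries (median 10.4 CPM in the NAc and 8.57 in the mPFC) from cFos-negative ones (11.5 and 12.4). The free-text description also contradicted the title for 24 of the 48 libraries and 6 naive ones, 2 libraries titled male (overlapping and sucrose-seeking, mPFC pool 3) carried the sex label female, and the title was followed in each case.

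RNA of these microglial genes was present in every neuron library. The 35 members summed to 1067, 1228 and 1569 CPM in the 12 tdTomato-positive NAc libraries, against 635, 729 and 864 CPM in the 12 tdTomato-negative ones. In the mPFC they summed to 778, 1103 and 1370 CPM in tdTomato-positive libraries and 501, 603 and 783 CPM in tdTomato-negative ones. The groups did not overlap in the NAc, and in the mPFC the lowest positive library lay just under the highest negative one. A list of 14 neuronal genes summed to 6236, 6887 and 8781 CPM in tdTomato-positive against 4831, 7141 and 9563 CPM in tdTomato-negative NAc libraries, and 12 astrocyte genes to 4510, 4974 and 6500 CPM in tdTomato-positive against 3172, 4970 and 6655 CPM in tdTomato-negative libraries. These ranges overlapped almost entirely where sucrose-seeking and non-ensemble libraries were merged. Apart, the neuronal sum was 4831 to 6360 CPM in sucrose-seeking and 7923 to 9563 CPM in non-ensemble NAc libraries. In every pool both tdTomato-positive NAc libraries had a neuronal sum above the sucrose-seeking and below the non-ensemble library. Astrocyte sums had the same order, except that cocaine-seeking male pool 1 lay above its non-ensemble library. In bulk libraries, fewer microglia and less RNA per microglial cell cannot be told apart.

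**Figure D1:**
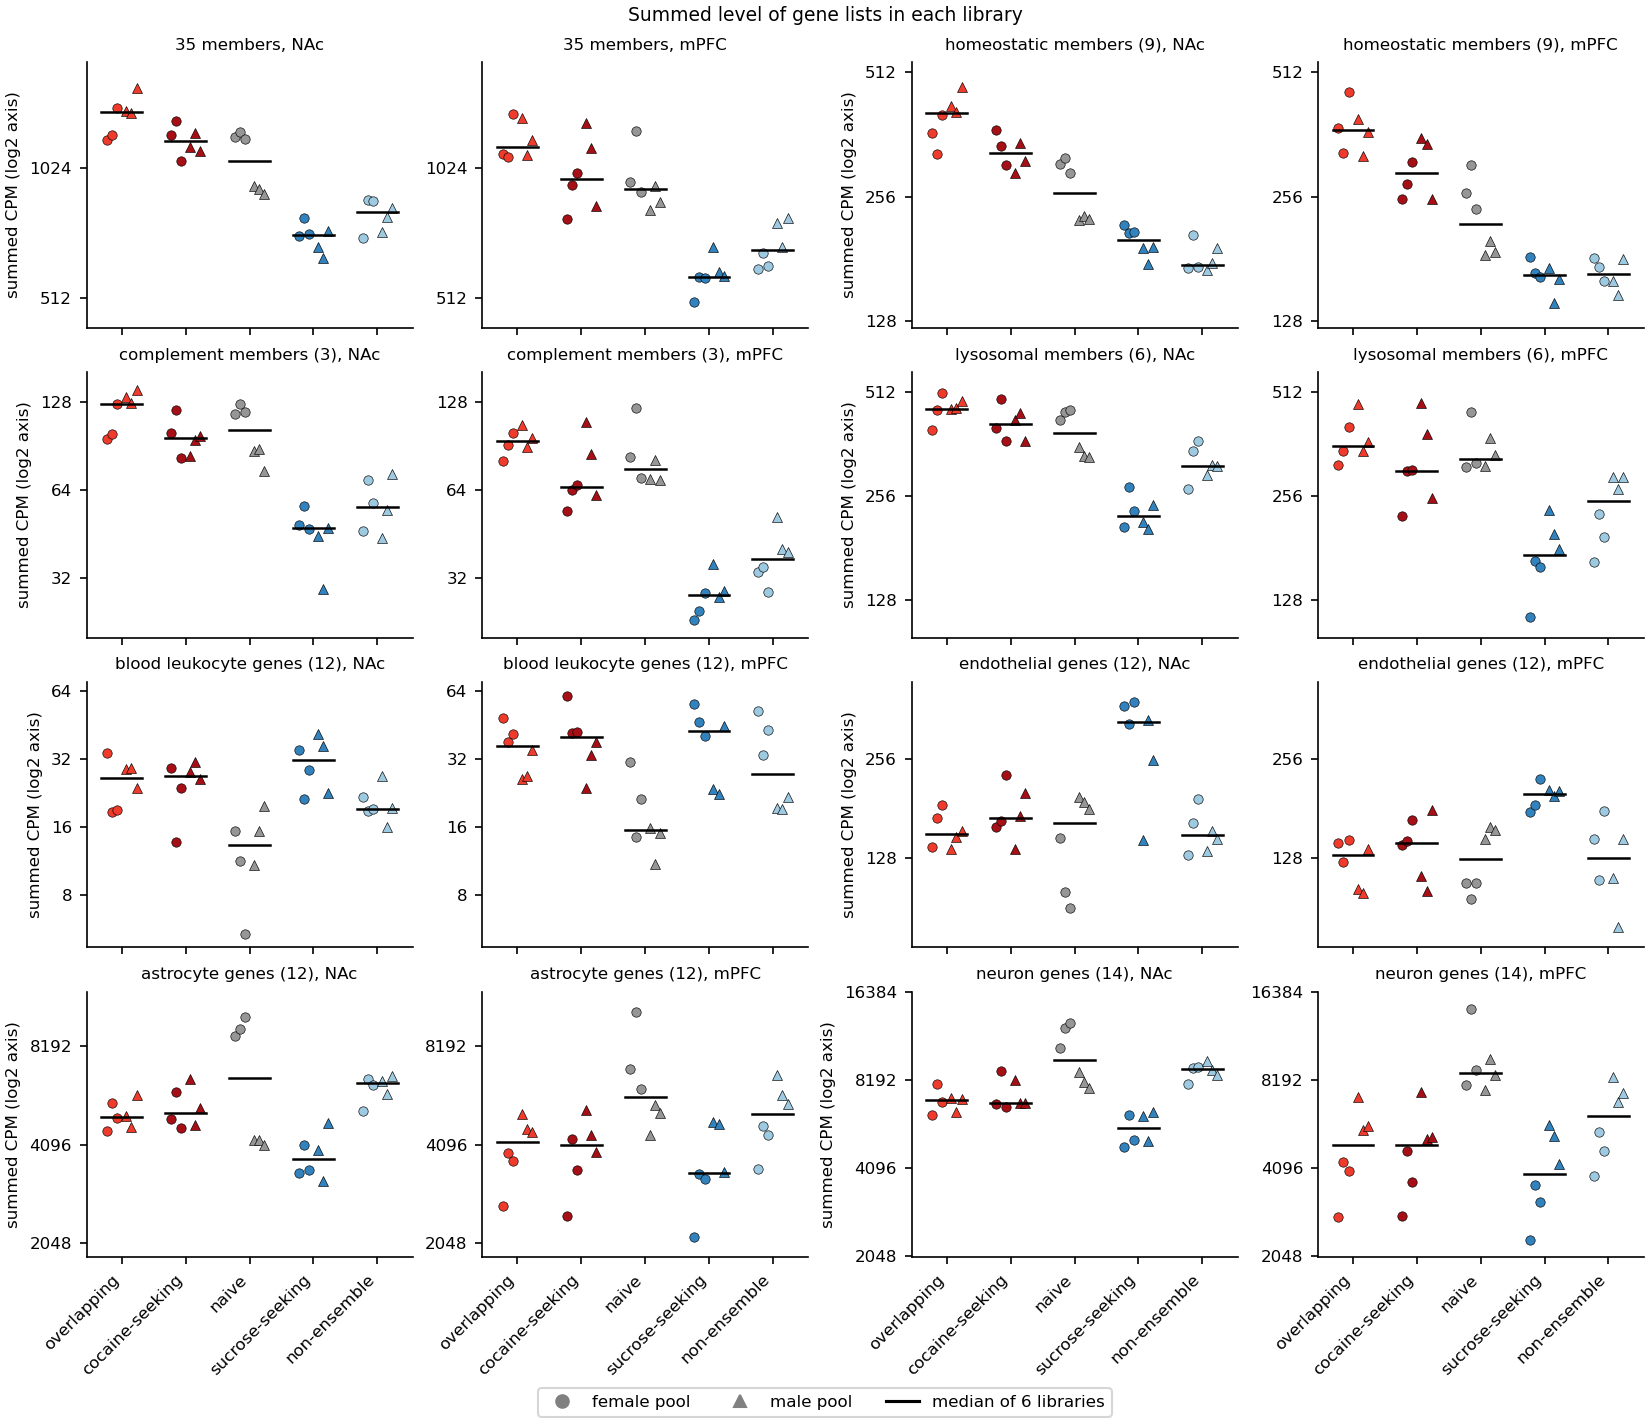
Summed level of gene lists in each library (CPM, log2 axis) by population, for the NAc and the mPFC; each point is 1 library and the bar is the median of 6. The member sums of the overlapping and cocaine-seeking libraries sit above those of the sucrose-seeking and non-ensemble ones, with NAc medians of 1383 CPM (overlapping), 1185 (cocaine-seeking), 717 (sucrose-seeking) and 808 (non-ensemble), while neuron and astrocyte sums do not follow this split.

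Per transcript length, lysosomal proteases were the most abundant members. Ctsd, the lysosomal aspartic protease cathepsin D, averaged 284 TPM over the 48 libraries, followed by Lgmn, the protease legumain, at 107 TPM, Csf1r at 106 TPM and Selplg, which encodes the P-selectin ligand, at 102 TPM. Itgb5 averaged 73.4 TPM, the C1q chains 68.5 (C1qa), 61.8 (C1qc) and 59.9 TPM (C1qb), and Tmem119 and P2ry12 34.0 and 25.2 TPM. The lowest members were Gpr34 at 1.36 TPM and Cd53 at 1.30 TPM.

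Among the homeostatic genes, Csf1r, the receptor that microglia need to survive, was the most abundant. In the NAc it was at 134, 156 and 189 CPM in overlapping, 105, 126 and 141 in cocaine-seeking, 93.4, 112 and 139 in naive, 48.1, 62.8 and 73.5 in sucrose-seeking, against 55.8, 66.0 and 88.8 in non-ensemble libraries. Every tdTomato-positive NAc library lay above every tdTomato-negative one. In the mPFC, Csf1r was at 113, 124 and 161 CPM in overlapping, 68.8, 96.1 and 133 in cocaine-seeking, 71.4, 79.3 and 128 in naive, 34.9, 37.5 and 50.6 in sucrose-seeking, against 38.1, 49.5 and 60.2 in non-ensemble libraries. Here too the tdTomato-positive and tdTomato-negative libraries did not overlap, and the log2 fold change was 1.17 ± 0.07 in the NAc and 1.39 ± 0.08 in the mPFC (± SE throughout).

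Selplg differed from the other homeostatic genes in its order of levels. It was at 68.9, 95.9 and 112 CPM in overlapping, 73.2, 78.6 and 86.5 in cocaine-seeking, 29.1, 33.3 and 53.4 in naive, 55.2, 65.6 and 68.0 in sucrose-seeking, against 40.7, 49.8 and 59.3 CPM in non-ensemble NAc libraries. In the mPFC, Selplg was at 88.8, 97.1 and 129 CPM in overlapping, 79.4, 90.0 and 93.1 in cocaine-seeking, 26.1, 38.8 and 70.7 in naive, 47.8, 69.6 and 86.0 in sucrose-seeking, against 39.8, 57.6 and 79.9 in non-ensemble libraries. The naive libraries were thus the lowest by median in both regions, where for Csf1r they lay between the tdTomato-positive and tdTomato-negative ones. Its tdTomato log2 fold change was 0.65 ± 0.06 in the NAc and 0.63 ± 0.07 in the mPFC.

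Other surface markers of homeostatic microglia were higher in tdTomato-positive libraries as well. Tmem119 was at 16.8, 24.2 and 36.2 CPM in tdTomato-positive against 6.37, 11.6 and 13 CPM in tdTomato-negative NAc libraries, which did not overlap (1.24 ± 0.12 on the log2 scale, and 1.34 ± 0.12 in the mPFC). P2ry12, the ADP receptor that steers microglial processes, was at 14.5, 23.4 and 30.4 CPM in tdTomato-positive against 8.16, 11 and 15.8 CPM in tdTomato-negative libraries, in the NAc, with log2 fold changes of 1.03 ± 0.11 and 1.27 ± 0.13. Fcrls, a microglial Fc receptor-like gene, changed by 1.09 ± 0.12 and 1.34 ± 0.11, and Olfml3 by 0.96 ± 0.10 and 0.91 ± 0.10. Receptors at low levels changed by 0.67 to 1.10. Gpr34, a lysophosphatidylserine receptor, changed by 0.83 ± 0.18 and 1.10 ± 0.21, P2ry13 by 0.76 ± 0.14 and 0.68 ± 0.12 and the lectin gene Siglech by 0.67 ± 0.15 and 0.84 ± 0.10.

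The 3 complement genes encode the A, B and C chains of C1q and lie side by side on chromosome 4 (GRCm39, minus strand): C1qb at 136606009 to 136613511, C1qc at 136616466 to 136620376 and C1qa at 136623223 to 136626161. C1qa was at 30.9, 39.8 and 57.3 CPM in overlapping, 26.9, 32.3 and 40.4 in cocaine-seeking, 24.5, 34.2 and 39.4 in naive, 11.8, 16.6 and 20.4 in sucrose-seeking, against 16.6, 19.2 and 29.9 in non-ensemble NAc libraries. In the mPFC, C1qa was at 28.6, 34.4 and 39.6 CPM in overlapping, 18.8, 22.7 and 40.5 in cocaine-seeking, 21.9, 25.0 and 37.1 in naive, 7.36, 10.6 and 14 in sucrose-seeking, against 6.69, 11.6 and 17.5 in non-ensemble libraries. The mPFC groups did not overlap by tdTomato, whereas in the NAc non-ensemble libraries reached into the positive range. C1qc was at 31.7, 44.3 and 53.8 CPM in overlapping, 26.6, 32 and 38.4 in cocaine-seeking, 23.6, 33.1 and 41.7 in naive, 8.22, 15.4 and 18.1 in sucrose-seeking, against 13.3, 18.7 and 21.0 in non-ensemble NAc libraries. In the mPFC these values were 24.5, 31.0 and 37.2 CPM in overlapping, 17.9, 24.6 and 29.3 in cocaine-seeking, 21.5, 24 and 41.3 in naive, 7.61, 9.99 and 10.9 in sucrose-seeking, against 9.47, 13.4 and 15.9 in non-ensemble libraries. C1qc did not overlap by tdTomato in either region.

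C1qb, the third chain, was at 26.2, 37.9 and 42.4 CPM in overlapping, 22.4, 30.2 and 44.1 in cocaine-seeking, 26.3, 35.7 and 48.7 in naive, 9.47, 15 and 17.9 in sucrose-seeking, against 13.2, 17.4 and 23.4 in non-ensemble NAc libraries. In the mPFC, C1qb was at 23.0, 29.6 and 32.9 CPM in overlapping, 15.8, 19.8 and 39.4 in cocaine-seeking, 23.6, 28.0 and 43.3 in naive, 5.44, 7.42 and 10.8 in sucrose-seeking, against 10.1, 12 and 19.0 in non-ensemble libraries. The log2 fold changes of the chains in the tdTomato contrast were close to each other, at 1.00 ± 0.09, 1.09 ± 0.11 and 1.23 ± 0.12 for C1qa, C1qb and C1qc in the NAc. The mPFC values were 1.41 ± 0.11 (C1qa), 1.37 ± 0.10 (C1qb) and 1.30 ± 0.08 (C1qc). Complement was the role with the largest median change, 1.09 in the NAc and 1.37 in the mPFC, against 0.96 and 1.10 for the homeostatic and 0.85 and 0.98 for the lysosomal genes.

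**Figure D2:**
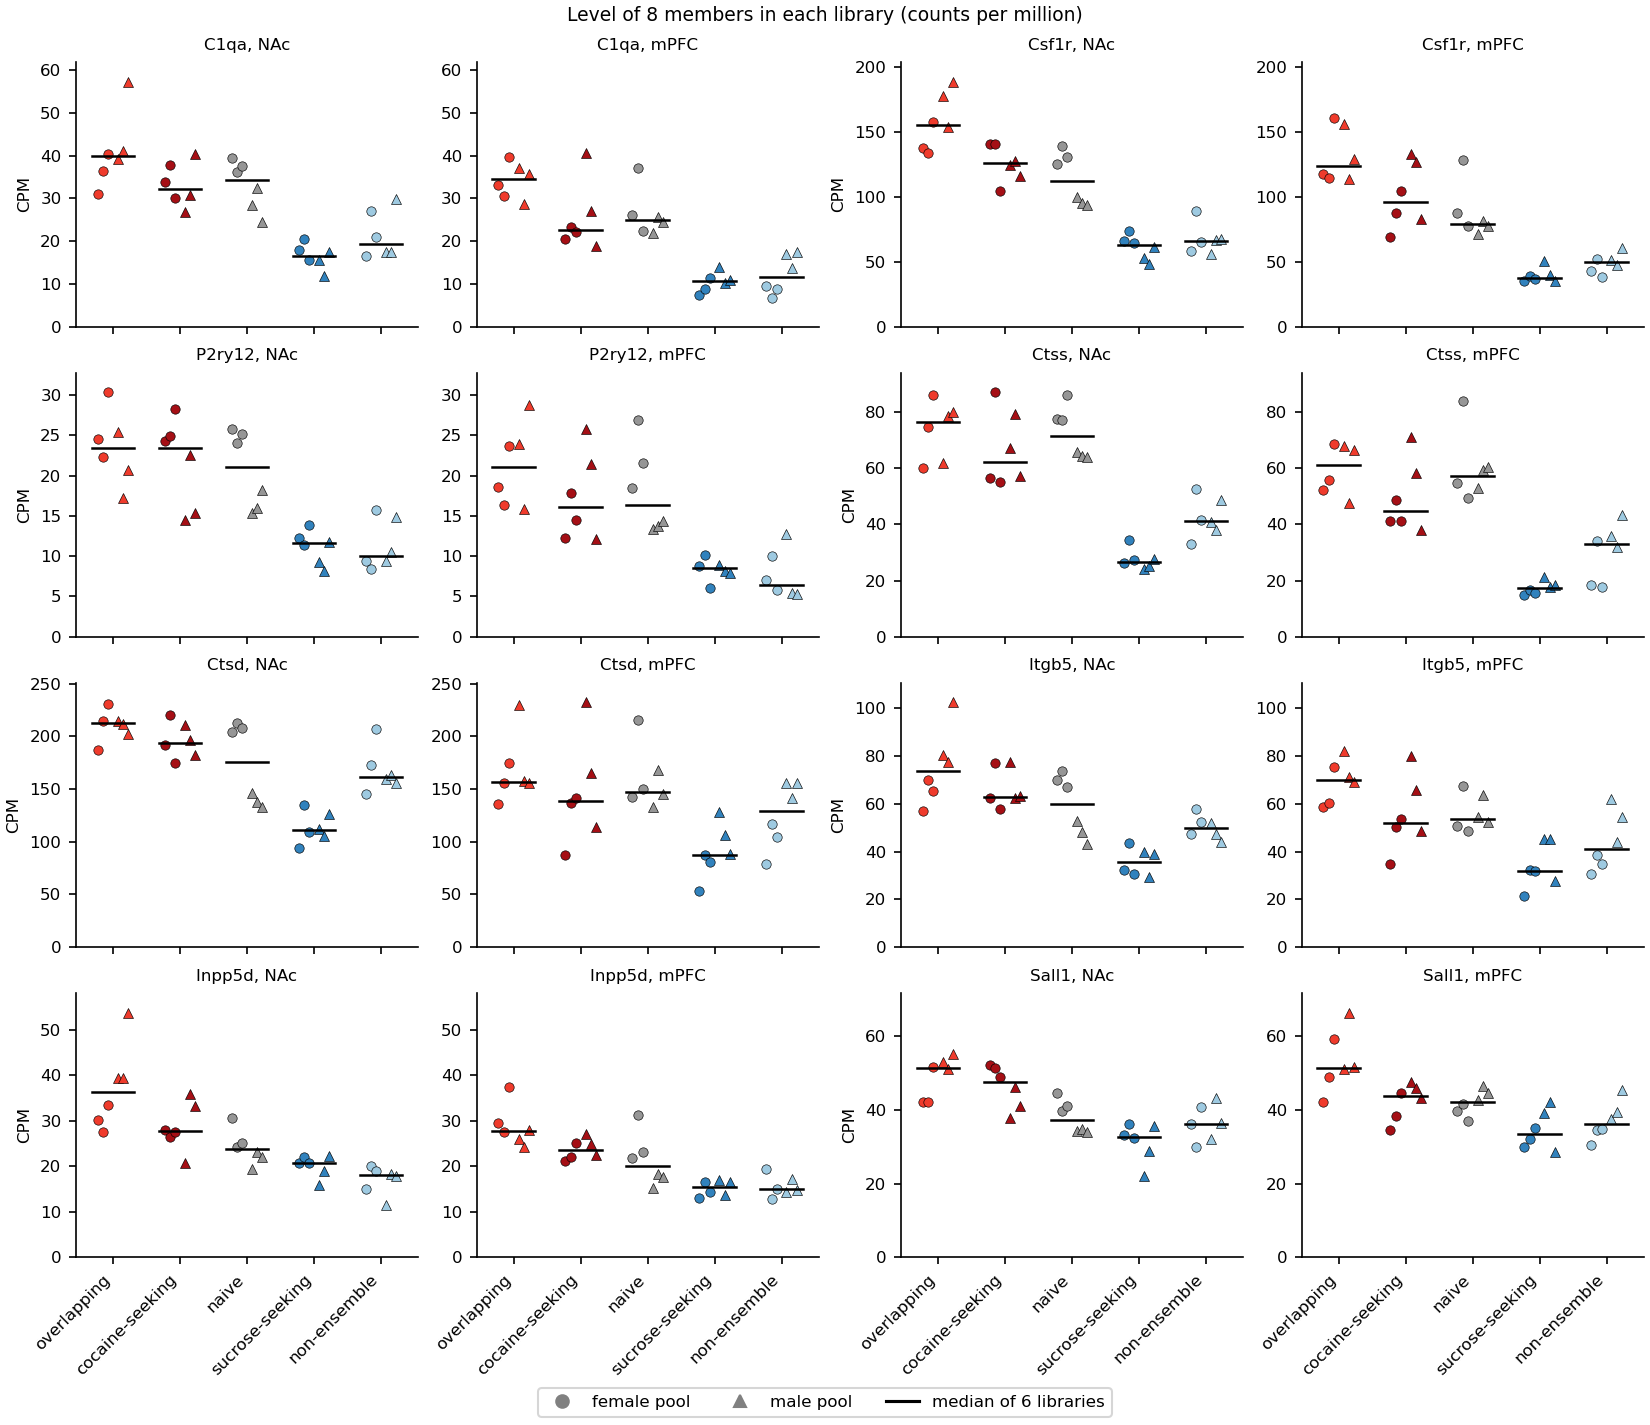
Levels of 8 members in every library (CPM) by population and region; circles are female and triangles male pools, and the bar is the median of 6. For Csf1r in the NAc all overlapping and cocaine-seeking libraries sit at 105 CPM or more and all sucrose-seeking and non-ensemble ones at 88.8 or less, whereas for Ctsd the non-ensemble libraries reach 207 CPM, inside the positive range.

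The lysosomal genes differed in the size of their change. Ctsd was the most abundant, at 188, 213 and 231 CPM in overlapping, 175, 194 and 220 in cocaine-seeking, 133, 175 and 213 in naive, 94.2, 111 and 135 in sucrose-seeking, against 145, 162 and 207 CPM in non-ensemble NAc libraries. In the mPFC, Ctsd was at 136, 157 and 230 CPM in overlapping, 87.8, 139 and 232 in cocaine-seeking, 133, 148 and 215 in naive, 53.3, 87.8 and 129 in sucrose-seeking, against 78.6, 129 and 156 in non-ensemble libraries. Sucrose-seeking libraries were the low ones in the NAc, and non-ensemble libraries overlapped the tdTomato-positive range. Lgmn had the same order in the NAc, with 80.7, 98.4 and 108 CPM in overlapping, 76.6, 85.7 and 111 in cocaine-seeking, 76.9, 83.9 and 99.7 in naive, 47.1, 52.9 and 67.0 in sucrose-seeking, against 60.8, 72.7 and 84.7 CPM in non-ensemble libraries. In the mPFC, Lgmn was at 58.1, 80.5 and 106 CPM in overlapping, 47.3, 69.1 and 106 in cocaine-seeking, 65.7, 85.2 and 102 in naive, 24.3, 41.9 and 54.9 in sucrose-seeking, against 39.1, 49.2 and 68.3 in non-ensemble libraries. Their tdTomato log2 fold changes were 0.59 ± 0.05 and 0.57 ± 0.07 for Ctsd and 0.59 ± 0.06 and 0.71 ± 0.05 for Lgmn.

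The other lysosomal genes had larger log2 fold changes than Ctsd and Lgmn, with Cd68 the nearest to them in the NAc. Ctss, encoding the cysteine protease cathepsin S, was at 55.0, 70.9 and 87.1 CPM in tdTomato-positive against 23.9, 33.7 and 52.8 CPM in tdTomato-negative NAc libraries, which did not overlap (1.07 ± 0.07). In the mPFC, Ctss was at 38.0, 54.0 and 71.1 CPM in tdTomato-positive against 14.9, 18.5 and 43.5 CPM in tdTomato-negative libraries, with some overlap (1.27 ± 0.10). Laptm5, a lysosomal membrane protein of blood cells and microglia, was at 27.3, 42.4 and 52.1 CPM in tdTomato-positive against 13.1, 17.0 and 23.1 CPM in tdTomato-negative libraries in the NAc, the largest change there of any member, 1.25 ± 0.08. Unc93b1, which carries nucleic acid-sensing Toll-like receptors to endosomes, changed by 0.99 ± 0.11 and 1.03 ± 0.12, and the scavenger receptor gene Cd68 by 0.71 ± 0.17 and 0.94 ± 0.13.

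Phagocytosis genes had log2 fold changes of 0.31 to 0.87 in the NAc and of 0.18 to 0.90 in the mPFC. Itgb5, an integrin that binds apoptotic cells through a bridging protein, was at 56.9, 73.8 and 103 CPM in overlapping, 57.9, 63.0 and 77.5 in cocaine-seeking, 43.3, 60.0 and 73.6 in naive, 29.4, 35.6 and 43.6 in sucrose-seeking, against 44.1, 49.7 and 57.9 CPM in non-ensemble NAc libraries. In the mPFC, Itgb5 was at 58.5, 70.1 and 82.3 CPM in overlapping, 35, 52.1 and 80.2 in cocaine-seeking, 48.7, 53.5 and 67.6 in naive, 21.3, 32 and 45.3 in sucrose-seeking, against 30.8, 41.3 and 61.9 in non-ensemble libraries. In the NAc the lowest positive library lay between non-ensemble ones, and sucrose-seeking libraries were all below non-ensemble ones. Mertk, a receptor tyrosine kinase for engulfment that astrocytes make too, had the smallest log2 fold change of all members. It was at 48.3, 60.5 and 77.1 CPM in overlapping, 53.2, 61.7 and 64.0 in cocaine-seeking, 39.4, 49.8 and 61.7 in naive, 42.2, 53.7 and 56.3 in sucrose-seeking, against 40.4, 46.5 and 54.9 CPM in non-ensemble NAc libraries. In the mPFC its values were 42.1, 47.2 and 57.9 CPM in overlapping, 30.4, 48.0 and 55.5 in cocaine-seeking, 38.3, 39.0 and 64.7 in naive, 28.7, 46.5 and 54.4 in sucrose-seeking, against 28.7, 38.8 and 55.1 in non-ensemble libraries, with log2 fold changes of 0.31 ± 0.06 and 0.18 ± 0.07. These ranges overlapped broadly. The complement receptor subunit gene Itgam changed by 0.87 ± 0.11 and 0.90 ± 0.09, and the lipid receptor gene Trem2 by 0.81 ± 0.11 and 0.80 ± 0.09. The UDP receptor gene P2ry6 was at 2.18 to 13.3 CPM in tdTomato-positive against 1.28 to 5.48 CPM in tdTomato-negative NAc libraries, with values of 0.60 ± 0.24 in the NAc and 0.48 ± 0.17 in the mPFC that were short of the threshold.

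Of the signalling genes, Inpp5d was at 27.5, 36.4 and 53.8 CPM in overlapping, 20.8, 27.7 and 36.0 in cocaine-seeking, 19.4, 23.7 and 30.6 in naive, 15.9, 20.7 and 22.3 in sucrose-seeking, against 11.4, 18.1 and 20.1 CPM in non-ensemble NAc libraries. In the mPFC, Inpp5d was at 24.2, 27.7 and 37.5 CPM in overlapping, 21.2, 23.7 and 27.2 in cocaine-seeking, 15.2, 20.0 and 31.2 in naive, 12.9, 15.4 and 17.0 in sucrose-seeking, against 12.7, 14.9 and 19.3 in non-ensemble libraries. The mPFC groups did not overlap by tdTomato, and in the NAc the lowest cocaine-seeking library lay inside the sucrose-seeking range. The Src-family kinase gene Lyn was at 12.7, 17.4 and 20.6 CPM in overlapping, 14, 14.8 and 19.0 in cocaine-seeking, 12.4, 13.8 and 16.8 in naive, 8.31, 11.6 and 13 in sucrose-seeking, against 2.10, 9.32 and 12.2 CPM in non-ensemble NAc libraries. In the mPFC, Lyn was at 15.3, 16.1 and 20.4 CPM in overlapping, 11.4, 14.6 and 20.4 in cocaine-seeking, 10.2, 14 and 17.1 in naive, 7.91, 10.5 and 13.1 in sucrose-seeking, against 9.79, 12.3 and 14.1 in non-ensemble libraries, with log2 fold changes of 0.80 ± 0.14 and 0.53 ± 0.10. Fcgr3, an Fc gamma receptor, was at 11.1, 13 and 16.7 CPM in tdTomato-positive against 3.83, 6.80 and 9.19 CPM in tdTomato-negative NAc libraries, without overlap. The adaptor gene Tyrobp, whose product carries the Trem2 signal, changed by 0.84 ± 0.19 and 0.91 ± 0.21. Cd53 had a log2 fold change of 0.80 ± 0.25 in the NAc, short of the threshold, and of 1.26 ± 0.29 in the mPFC. Both were low and had wide errors, with Tyrobp at 1.24 to 7.27 CPM in the NAc and Cd53 at 0.619 to 5.08 CPM.

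The transcription factor genes had the smallest median change of the roles, 0.53 in the NAc and 0.47 in the mPFC. Sall1, which holds microglial identity and is made by some neural cells too, was at 42.1, 51.3 and 55.1 CPM in overlapping, 37.7, 47.6 and 52.0 in cocaine-seeking, 34.0, 37.1 and 44.5 in naive, 22.0, 32.7 and 36.1 in sucrose-seeking, against 30.0, 36.2 and 43.3 CPM in non-ensemble NAc libraries. In the mPFC, Sall1 was at 42.2, 51.4 and 66.3 CPM in overlapping, 34.5, 43.9 and 47.6 in cocaine-seeking, 37.0, 42.1 and 46.4 in naive, 28.6, 33.5 and 42.1 in sucrose-seeking, against 30.5, 36.1 and 45.4 in non-ensemble libraries. The overlapping libraries were the highest by median, and the other groups shared part of their range. Irf8, an interferon regulatory factor of myeloid cells, was at 13.4, 15.8 and 19.5 CPM in overlapping, 11.7, 15.9 and 17.1 in cocaine-seeking, 7.31, 9.39 and 12.5 in naive, 9.89, 13.1 and 14.7 in sucrose-seeking, against 5.73, 9.16 and 14.3 CPM in non-ensemble NAc libraries. In the mPFC these values were 16.8, 18.1 and 25.8 CPM in overlapping, 12.3, 16.8 and 19.1 in cocaine-seeking, 7.59, 9.48 and 14.4 in naive, 8.18, 13.6 and 17.6 in sucrose-seeking, against 9.73, 14 and 17.5 in non-ensemble libraries. In the mPFC the naive libraries had the lowest median, as for Selplg. Spi1, at 1.05 to 8.86 CPM in the NAc, changed by 0.86 ± 0.20 and 0.61 ± 0.15.

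**Figure D3:**
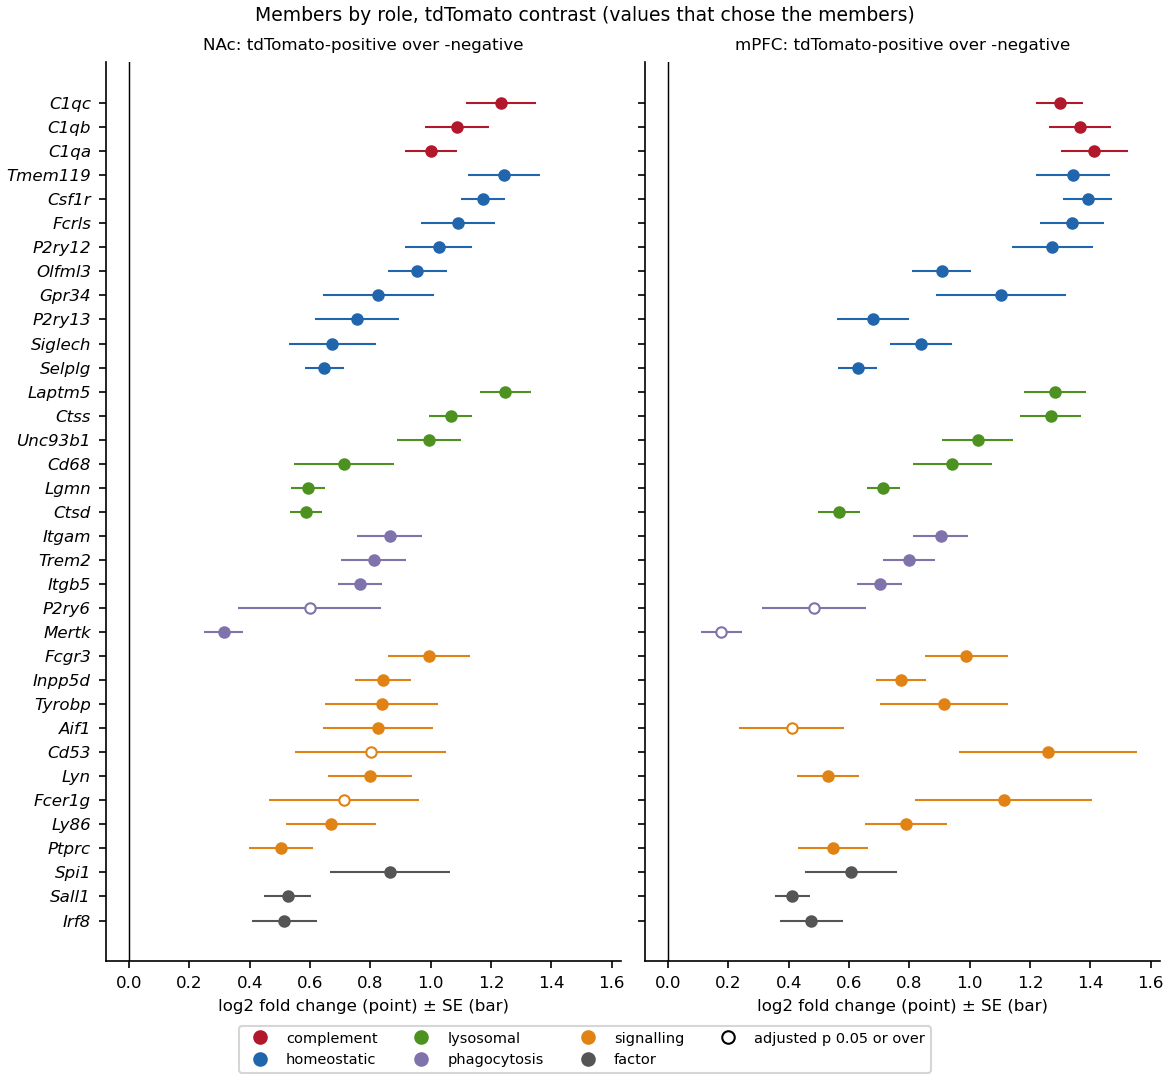
Log2 fold change of each of the 35 members, tdTomato-positive over tdTomato-negative, in the NAc and the mPFC, ordered by role; points are edgeR estimates with the pool as a block and bars are ± 1 SE. All 35 points lie above 0 in both regions, with complement, Csf1r, Tmem119, Fcrls, P2ry12, Laptm5 and Ctss at 1 or more and Mertk nearest to 0.

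Over all members, 32 of 35 were past an adjusted p of 0.05 and higher in tdTomato-positive libraries in each region, where 0.688% of 25150 genes tested were so in the NAc and 1.18% of 26861 in the mPFC. None was lower, where 0.0676% of genes were in the NAc and 1.64% in the mPFC. The members' median log2 fold change was 0.83 in the NAc (0.31 to 1.25) and 0.90 in the mPFC (0.18 to 1.41), and the median of all genes was 0.03 in both. Those short of the threshold were Cd53, Fcer1g and P2ry6 in the NAc and P2ry6, Mertk and Aif1 in the mPFC. These counts describe the contrast that singled the genes out. In the NAc, 11 members had every tdTomato-positive library above every tdTomato-negative one (Tmem119, Fcrls, Olfml3, Csf1r, Selplg, C1qc, Ctss, Laptm5, Unc93b1, Trem2 and Fcgr3), as had 0.0737% of 20356 genes of at least 1 CPM. In the mPFC these were 6 members (Csf1r, C1qa, C1qc, Cd68, Unc93b1 and Inpp5d), beside 0.0538% of 22308 genes. Within pools, both tdTomato-positive libraries exceeded both tdTomato-negative ones in all 6 pools for 18 members in the NAc (0.182% of genes) and 14 in the mPFC (0.197%).

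The excess was present in each pairing of populations. The members' median log2 difference was 0.93 between overlapping and sucrose-seeking, 0.95 between overlapping and non-ensemble, 0.77 between cocaine-seeking and sucrose-seeking and 0.76 between cocaine-seeking and non-ensemble NAc libraries. In the mPFC these medians were 1.07 (overlapping and sucrose-seeking), 0.97 (overlapping and non-ensemble), 0.80 (cocaine-seeking and sucrose-seeking) and 0.70 (cocaine-seeking and non-ensemble), and all 35 members were above 0 in each of the 8 pairings. Pairings that share a population are not independent of each other. As a description of the contrast that singled the genes out, 8 members were past the threshold in the mPFC libraries of male pools 1 and 3 alone, those with Slc17a7 at the NAc level, as were 23 of 25677 genes. With counts scaled to transcript length, 19 members were past it in the NAc and 20 in the mPFC, as were 0.153% and 0.184% of all genes.

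The naive libraries, which held more counts and came in files of another numeric format, were nearer to the tdTomato-positive than to the tdTomato-negative libraries for complement genes. The C1q chains summed to 82.7, 99.6 and 141 CPM in tdTomato-positive, 74.4, 103 and 126 CPM in naive and 29.5, 48.0 and 72.5 CPM in tdTomato-negative NAc libraries, so that the naive range lay inside the positive one but for its lowest library. In the mPFC these were 54.2, 87.2 and 109 CPM in tdTomato-positive, 69.4, 75.7 and 122 in naive and 23.0, 31.3 and 51.9 in tdTomato-negative libraries. The homeostatic sum was 292, 355 and 470 CPM in tdTomato-positive, 225, 261 and 317 in naive and 170, 193 and 219 in tdTomato-negative NAc libraries, where the naive median lay between the others and the naive range overlapped the positive one. Naive NAc libraries split by sex, with member sums of 1196, 1208 and 1244 CPM in the female and 891, 918 and 932 CPM in the male ones. The split was not particular to the members. Astrocyte sums were 8819 CPM or more in the female and 4243 or less in the male ones, and neuronal sums 10547 to 12897 and 7701 to 8740 CPM. Against the naive libraries, 17 members were higher and 2 lower in tdTomato-positive NAc libraries, where 27.1% of genes were higher and 24.8% lower. In the mPFC 12 were higher and 2 lower, where 36.8% of genes were higher and 28.7% lower, and the members lower in both regions were Tyrobp and Aif1. The mPFC share of members called higher was no larger than that of all genes. This comparison shares the tdTomato-positive libraries with the contrast that singled out the members, so it is a description too. The C1q chains were not among those called. The largest differences were P2ry6 (1.63 ± 0.31 in the NAc, 1.25 ± 0.23 in the mPFC), Selplg (1.25 and 1.24) and Tmem119 (1.00 and 0.95).

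Set the other way, 27 members were higher and 2 lower in naive than in tdTomato-negative NAc libraries, where 25.2% of 25765 genes were higher and 22.2% lower. In the mPFC 27 were higher and 3 lower, beside 26.5% and 29.9% of 27208 genes. The comparison shares the tdTomato-negative libraries with the one that singled out the members, so it is given as a description. All 3 complement and all 6 lysosomal genes were among those higher in both regions, with Ctss at 1.05 ± 0.10 and 1.40 ± 0.14 and C1qb at 1.13 ± 0.14 and 1.56 ± 0.16. Selplg (−0.59 and −0.61) and P2ry6 (−1.03 and −0.82) were lower in both regions, and Irf8 (−0.43) in the mPFC. The list of 14 neuronal genes was higher in naive libraries for 11 genes in the NAc and 14 in the mPFC, and what part sorting, depth and quantification have in these differences was not tested.

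The cFos label was not used in the choice of genes. The shares of members called by it were close to or below those of all genes, in each direction and region. Across both tdTomato classes, cFos-positive NAc libraries were higher than cFos-negative ones in 4 members and lower in 3, where 11.1% of 25150 genes were higher and 16.2% lower. The higher ones were P2ry13 (0.63 ± 0.14, adjusted p = 0.0011), Selplg (0.28 ± 0.06, adjusted p = 0.0016), Siglech (0.51 ± 0.15, adjusted p = 0.009) and Inpp5d (0.30 ± 0.09, adjusted p = 0.015). The lower ones were Ctsd (−0.25 ± 0.05, adjusted p = 0.00084), Ctss (−0.26 ± 0.07, adjusted p = 0.0068) and Lgmn (−0.16 ± 0.06, adjusted p = 0.037). With length-scaled counts Ctsd and Lgmn did not keep this direction. In the mPFC, Siglech (0.36 ± 0.10) and Selplg (0.23 ± 0.06) were higher, both at an adjusted p of 0.015, and no member was lower, where 6.47% and 9.15% of 26861 genes were. At an unadjusted p under 0.05, Ctss and Spi1 were lower there with edgeR, and 1 member passed the adjusted threshold with DESeq2 and 1 with limma-voom. No member passed in the mPFC without the replicate block, where 3.25% of all genes did, with length-scaled counts (4.76%), in male libraries alone (2.32%), or in male pools 1 and 3 alone, where 4 of 25677 genes did.

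The difference between the tdTomato-negative populations was looked at after the values had been seen. In the NAc, sucrose-seeking libraries were higher than non-ensemble ones in 5 members and lower in 7, where 16.8% of genes were higher and 19.6% lower. In both directions the share of members called was close to or below that of all genes. Ctsd, given above by group, was lower, at −0.59 ± 0.08 on the log2 scale (adjusted p = 5e-07), with every sucrose-seeking library under every non-ensemble one. Ctss was at 23.9, 26.7 and 34.4 CPM in sucrose-seeking against 33.1, 41.1 and 52.8 CPM in non-ensemble libraries, which overlapped in their extremes only (−0.66 ± 0.10, adjusted p = 7.3e-06). Lgmn (−0.45 ± 0.08, adjusted p = 7.5e-05), Itgb5 (−0.53 ± 0.10, adjusted p = 0.00013), C1qa (−0.40 ± 0.12, adjusted p = 0.01), Laptm5 (−0.35 ± 0.12, adjusted p = 0.023) and Tyrobp (−0.88 ± 0.27, adjusted p = 0.011) were lower too. Ctsd, Itgb5 and Laptm5 turned direction with length-scaled counts, and Ctss kept its direction.

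The 5 members higher in sucrose-seeking NAc libraries were no larger a share of the 35 than the genes called higher were of all genes. P2ry13 was at 8.22, 10.7 and 12.7 CPM in sucrose-seeking against 2.26, 4.81 and 10.9 CPM in non-ensemble libraries, with partial overlap (1.06 ± 0.20, adjusted p = 0.00013). Ptprc, the leukocyte antigen CD45, was higher by 0.51 ± 0.15 (adjusted p = 0.0086), Selplg by 0.30 ± 0.09 (adjusted p = 0.011), Siglech by 0.61 ± 0.21 (adjusted p = 0.021) and Irf8 by 0.43 ± 0.15 (adjusted p = 0.027). Ptprc turned direction with length-scaled counts. Selplg and Ptprc were higher in the sucrose-seeking library in all 6 pools, and Ctss, Ctsd and Lgmn in none.

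In the mPFC, 2 members were higher and 9 lower in sucrose-seeking than in non-ensemble libraries, where 12.1% of genes were higher and 14.6% lower. Ctss was at 14.9, 17.2 and 21.3 CPM in sucrose-seeking against 17.8, 33.0 and 43.5 CPM in non-ensemble libraries, again with sucrose-seeking lower in every pool (−0.73 ± 0.15, adjusted p = 0.00033). Itgam was at 9.36, 12.8 and 13.8 CPM in sucrose-seeking against 14.5, 17.8 and 25.1 CPM in non-ensemble libraries, without overlap (−0.62 ± 0.13, adjusted p = 0.00048). Ctsd (−0.45 ± 0.10, adjusted p = 0.00092), C1qb (−0.64 ± 0.15, adjusted p = 0.0015), Lgmn (−0.31 ± 0.08, adjusted p = 0.0028), Spi1 (−0.83 ± 0.22, adjusted p = 0.0046) and C1qc (−0.41 ± 0.11, adjusted p = 0.0061) were lower as well. Itgb5 and Laptm5 completed the lower ones, and P2ry13 (0.57 ± 0.17, adjusted p = 0.013) and Ptprc (0.46 ± 0.17, adjusted p = 0.041) were higher. Without the pool block 7 members passed in place of 11, where 15.3% of all genes passed, and in male pools 1 and 3 alone 3 did, where 3385 of 25677 genes did.

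**Figure D4:**
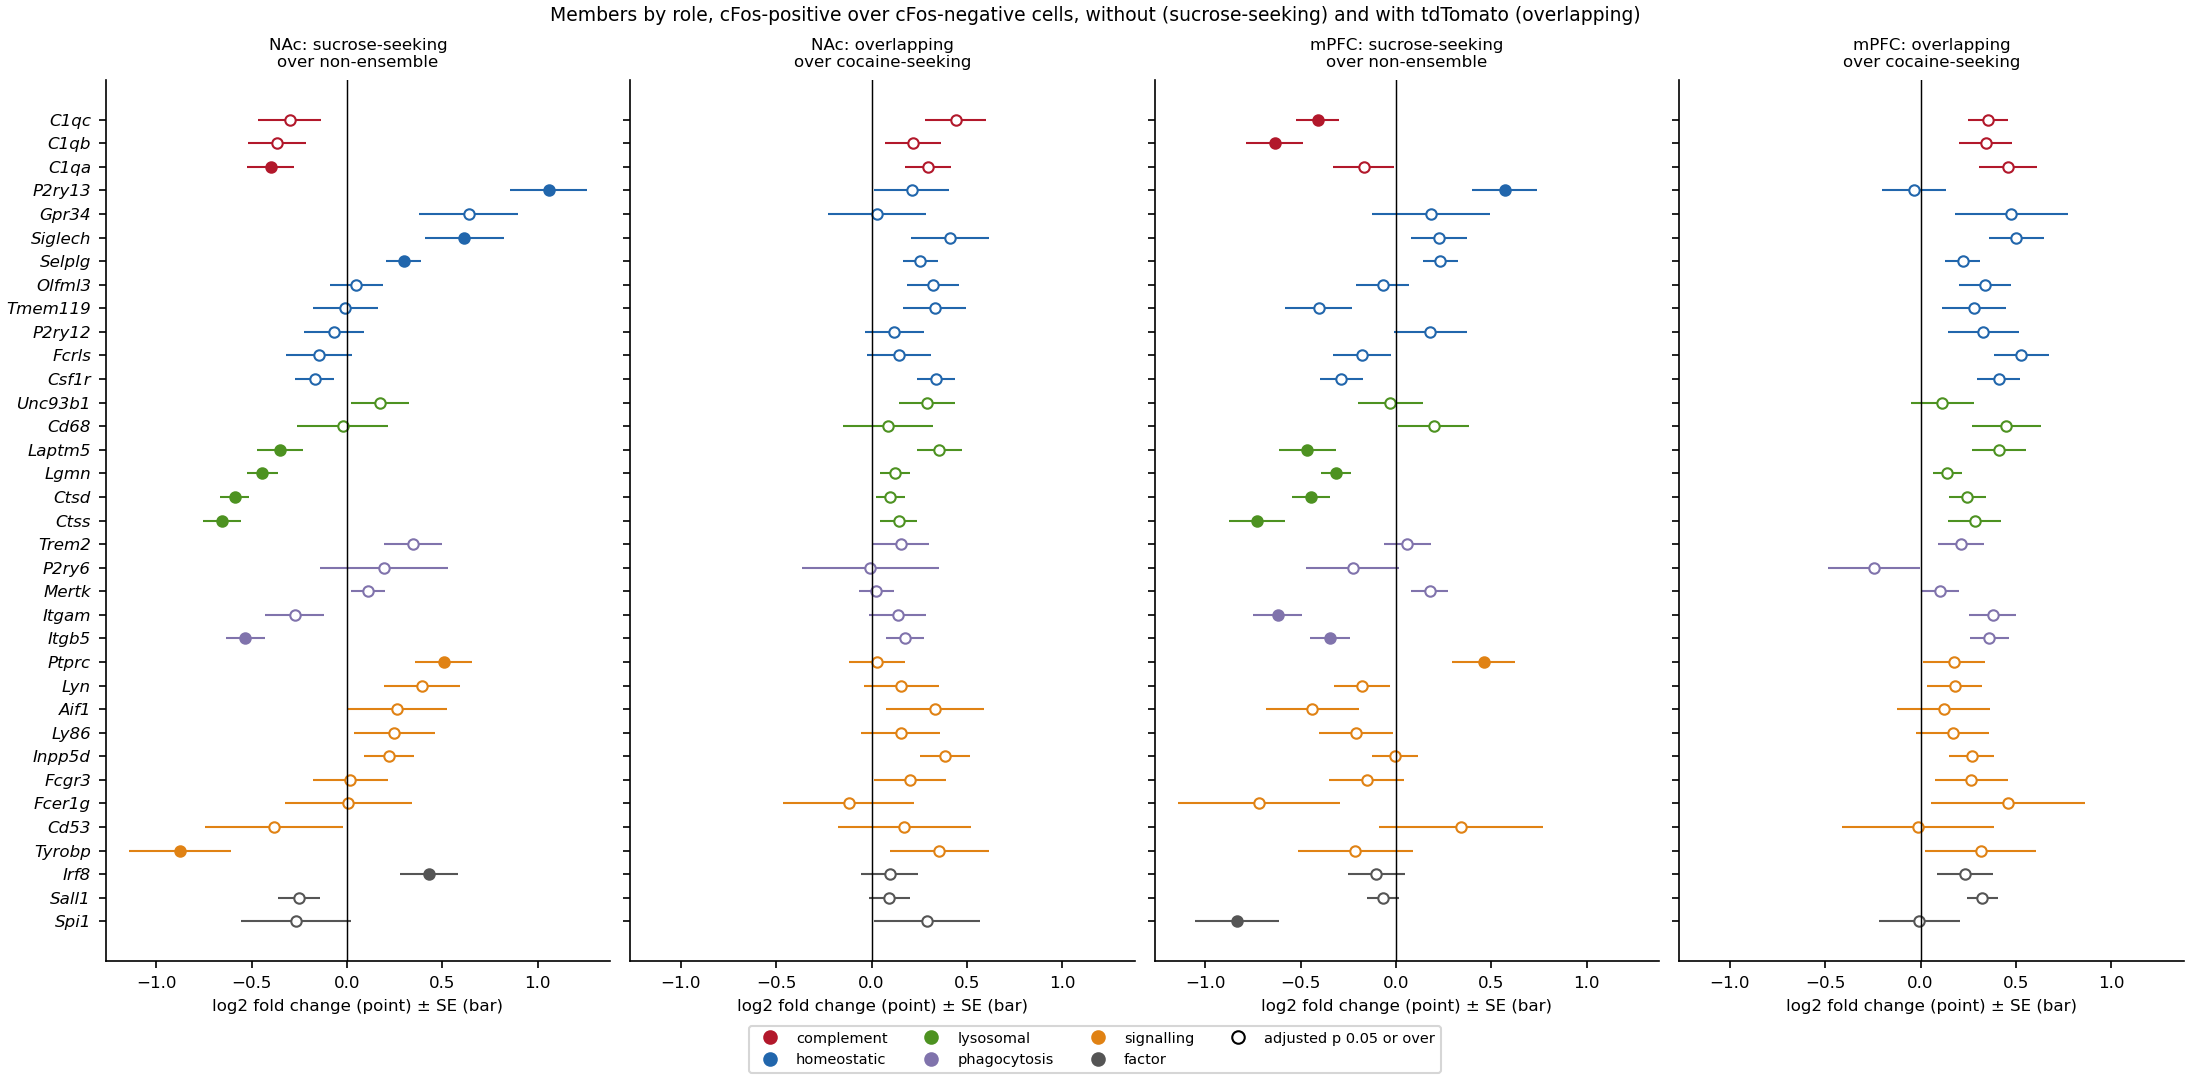
Log2 difference of each member (points, ± 1 SE) between sucrose-seeking and non-ensemble libraries and between overlapping and cocaine-seeking libraries, in the NAc and the mPFC; open circles have an adjusted p of 0.05 or more. Ctss, Ctsd and Lgmn lie left of 0 and P2ry13 right of it in the sucrose-seeking panels, while every point of the overlapping panels is open.

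Sums by role were also read within the tdTomato-negative libraries, on counts not scaled for transcript length. With length-scaled counts Ctsd, the largest part of the lysosomal sum, and Laptm5 turned direction in the NAc, and Lgmn was at −0.06 (edgeR adjusted p = 0.796). The lysosomal sum was 206, 224 and 272 CPM in sucrose-seeking against 269, 313 and 369 CPM in non-ensemble NAc libraries, while the homeostatic sum was 176, 201 and 219 CPM in sucrose-seeking against 170, 175 and 207 CPM in non-ensemble libraries. The log2 ratio of the lysosomal to the homeostatic sum was −0.07, 0.19 and 0.38 in sucrose-seeking, against 0.65, 0.77 and 1.09 in non-ensemble NAc libraries, which did not overlap. In the mPFC it was −0.67, 0.07 and 0.49 in sucrose-seeking against −0.14, 0.54 and 0.86 in non-ensemble libraries, which overlapped. The ratio of complement to homeostatic sums was −2.58, −2.14 and −1.89 in sucrose-seeking against −1.95, −1.64 and −1.41 in non-ensemble libraries in the NAc. Other cell types moved between the same libraries. All 14 neuronal genes were lower in sucrose-seeking libraries in both regions, as were 11 of 12 astrocyte genes in the NAc and 7 in the mPFC, and 10 of 12 endothelial genes were higher in the NAc and 9 in the mPFC. The neuronal sum was 4831, 5632 and 6360 CPM in sucrose-seeking against 7923, 8955 and 9563 CPM in non-ensemble NAc libraries, and the endothelial sum 145, 331 and 379 CPM in sucrose-seeking against 131, 151 and 194 CPM in non-ensemble libraries. Their part in the members' differences was not tested.

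Between the 2 tdTomato-positive populations no member passed the test. The count was 0 of all genes too with edgeR in both regions, with 1091 of 25150 genes in the NAc and 1167 of 26861 in the mPFC at an unadjusted p under 0.05. Among the members 7 and 15 were under that value, and limma-voom and DESeq2 called none of them. The overlapping libraries were above the cocaine-seeking ones in 33 of 35 members in the NAc (median 0.17) and 31 in the mPFC (median 0.28), where the median of all genes was 0.00. The largest of these differences with a small error were C1qc (0.44 ± 0.16) and Csf1r (0.34 ± 0.10) in the NAc and Fcrls (0.53 ± 0.14) and Siglech (0.50 ± 0.14) in the mPFC. Siglech was at 13, 16.9 and 21.2 CPM in overlapping against 7.22, 12.8 and 16.3 CPM in cocaine-seeking mPFC libraries, which overlapped.

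The tag interaction asks whether the signed cFos difference (cFos-positive minus cFos-negative) was larger among tdTomato-positive than among tdTomato-negative libraries. It was positive in 10 members and negative in 1 in the NAc, where 13.1% of 25150 genes were positive and 7.72% negative, and positive in 12 in the mPFC, beside 10.5% and 6.52% of 26861 genes. None was negative in the mPFC with edgeR, where P2ry13 alone had an unadjusted p under 0.05, at −0.61. The smallest adjusted p in the NAc were those of Ctsd (0.69 ± 0.11, adjusted p = 3.1e-05), Ctss (0.80 ± 0.14, adjusted p = 0.00014), Itgb5 (0.71 ± 0.14, adjusted p = 0.00058) and Lgmn (0.57 ± 0.11, adjusted p = 0.00059). In the mPFC they were those of Itgam (1.00 ± 0.18, adjusted p = 0.00023), Ctss (1.01 ± 0.20, adjusted p = 0.0007), Ctsd (0.69 ± 0.14, adjusted p = 0.00076) and C1qc (0.76 ± 0.15, adjusted p = 0.00077). Each of these members was lower in sucrose-seeking than in non-ensemble libraries of that region, and no member passed between overlapping and cocaine-seeking ones. A positive term here therefore does not mean a cFos difference of larger size among tdTomato-positive libraries. The 3 C1q chains and 4 of 6 lysosomal genes were positive in each region, while of the 9 homeostatic genes Csf1r was positive and P2ry13 negative (−0.85 ± 0.28, adjusted p = 0.031) in the NAc, and Csf1r and Fcrls positive in the mPFC. In the NAc Ctsd, Itgb5 and Laptm5 turned direction with length-scaled counts. All 14 neuronal genes were positive in both regions too, and 9 of 12 endothelial genes were negative in the NAc and 6 in the mPFC. In male pools 1 and 3 alone 2 members passed in the mPFC, where 718 of 25677 genes did.

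The size of the tdTomato difference was not found to depend on sex or region for any member. For sex, edgeR called 0 members and 0 genes in both regions, with 1441 genes in the NAc and 1350 in the mPFC at an unadjusted p under 0.05, among them 6 and 4 members. DESeq2 called 6 genes in the NAc and 8 in the mPFC and limma-voom none, with no member among them. For region the count was again 0, with 1471 of 28118 genes at an unadjusted p under 0.05, and DESeq2 called 18 genes and limma-voom none. Among the members C1qa alone was under 0.05, at −0.41 ± 0.14 (NAc minus mPFC). The level itself, tested on counts summed per pool (3 pools per sex), passed for 0 members with edgeR, where 0.0811% of 29602 genes were lower and none higher in female NAc libraries, and 3.73% of 30660 were higher and 3.72% lower in female mPFC libraries. At an unadjusted p under 0.05 there were 1 member and 1271 of 29602 genes in the NAc. In the mPFC there were 7 members and 12038 of 30660 genes, a larger share than that of the members. Of the 7, DESeq2 called 4 and limma-voom 1. The nearest was Tyrobp in the mPFC (−0.83 ± 0.25, adjusted p = 0.052), and the female pools include the one with Ddx3y.

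By region, 17 members were higher in NAc than in mPFC libraries and 1, Ptprc (−0.21 ± 0.09, adjusted p = 0.048), lower, where 25.3% of 28118 genes were higher and 24.3% lower. The members' median was 0.28 and that of all genes −0.19. The smallest adjusted p were those of C1qc (0.54 ± 0.08, adjusted p = 2.1e-07), Csf1r (0.48 ± 0.07, adjusted p = 4.7e-07), Ctss (0.52 ± 0.08, adjusted p = 4.9e-07) and C1qa (0.59 ± 0.09, adjusted p = 1.3e-06). The fit had pool as a block but no term for pool within region. Populations sorted from the same punches thus entered as separate libraries, and the adjusted p of this comparison may be too small. For C1qa the tdTomato-negative libraries were at 11.8, 17.5 and 29.9 CPM in the NAc and 6.69, 10.6 and 17.5 CPM in mPFC libraries, which overlapped. All 3 complement and all 6 lysosomal genes were higher in the NAc, but 3 of 9 homeostatic ones, namely Csf1r, P2ry12 (0.42) and Tmem119 (0.40). Of the 14 neuronal genes, 13 were higher in the NAc as well, and 8 of 10 blood leukocyte genes were lower. In male libraries alone 3 members passed. In male pools 1 and 3 alone none passed with edgeR, where 1496 of 27490 genes did, and the smallest adjusted p of a member was 0.095, that of C1qc (0.42).

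**Figure D5:**
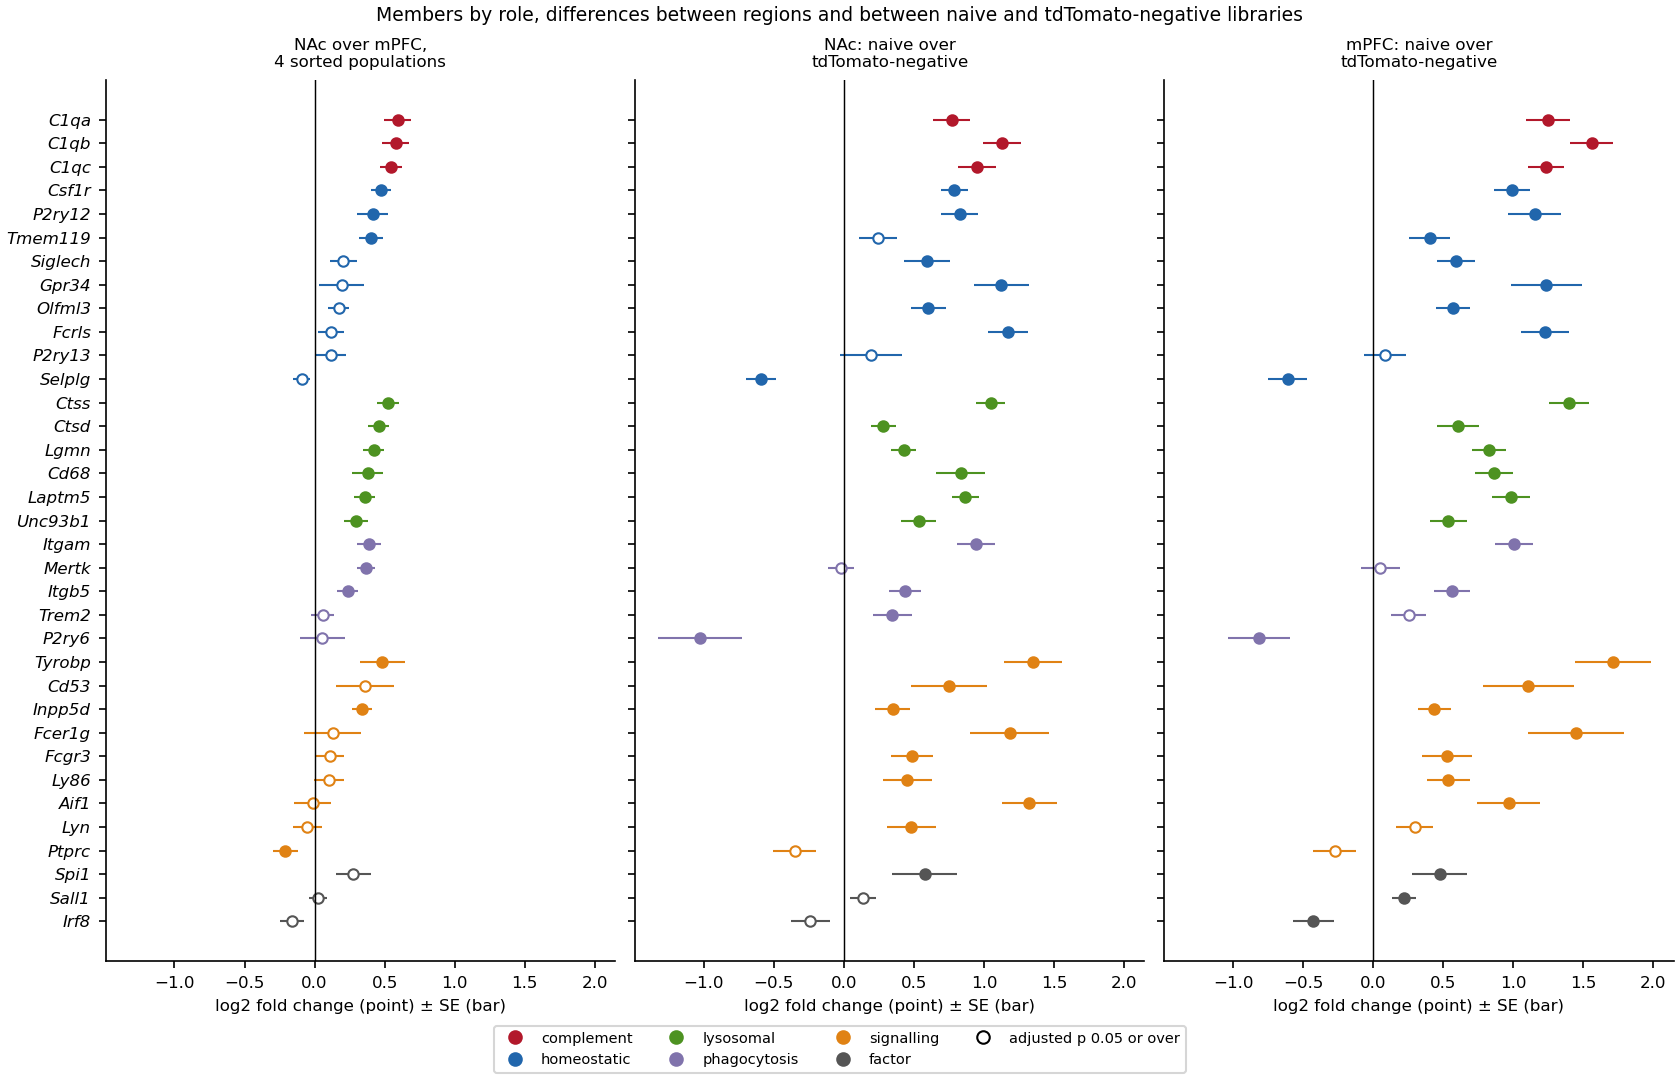
Log2 difference of each member (points, ± 1 SE) between NAc and mPFC libraries, and between naive and tdTomato-negative libraries in each region; open circles have an adjusted p of 0.05 or more. Complement and lysosomal genes lie right of 0 in all 3 panels, and Selplg and P2ry6 lie left of 0 in both naive panels.

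Other genes of the same cells were read from lists of markers. Of 48 further microglial genes, 23 in the NAc and 30 in the mPFC were higher in tdTomato-positive libraries (medians 0.55 and 0.51). This list, too, was chosen with results of these libraries known. Among them, the TGF-beta receptor gene Tgfbr1 changed by 0.73 in the NAc and 0.92 in the mPFC. Genes of activated microglia were mostly below the threshold, with 3 of 16 higher in the NAc (Apoe 0.28, Ctsb 0.23 and Ctsz 0.50) and 2 of 17 in the mPFC. These are larger shares than those of all genes tested, of which 0.688% were higher in the NAc and 1.18% in the mPFC. Of 10 border macrophage genes, 1 was higher in each region, Stab1 (0.75 and 0.68), again a larger share than that of all genes. Their sums reached higher in tdTomato-positive libraries, with overlap. In the NAc they were 40.0 to 81.8 CPM in tdTomato-positive against 32.9 to 54.2 CPM in tdTomato-negative libraries. In the mPFC they were 44.8 to 79.9 CPM against 33.0 to 54.5 CPM. Of the blood leukocyte genes, edgeR called 0 of 9 tested in the NAc and 0 of 10 in the mPFC, with 0 and 1 at an unadjusted p under 0.05. Their sums were 13.7, 27.0 and 33.9 CPM in tdTomato-positive against 15.9, 22.2 and 41.2 CPM in tdTomato-negative NAc libraries, and 23.9, 38.0 and 61.1 CPM in tdTomato-positive against 19.2, 36.8 and 55.8 CPM in tdTomato-negative libraries in the mPFC, overlapping throughout.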

How the data were processed

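Reads had been trimmed by the authors (CutAdapt), and transcripts of GRCm39 were quantified by them in Salmon, whose version is not given in the sources used here. PolyA RNA is the molecule in the labels, whereas the methods name ribosomal depletion and a low-input SMART-seq kit. The deposited values are estimated counts per transcript from Salmon, and TPM made by the authors with it. Estimated counts were summed per gene with GENCODE vM39 (116085 of 117209 transcripts matched; the rest hold 0.932 to 7.10% of a library) and rounded. Fcrls is named Fcrl2 in that annotation. Length-scaled counts were made from the deposited TPM.

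For each region, the 24 libraries of the 4 populations were fitted with edgeR 4.0.16 (R 4.3.3; quasi-likelihood test, TMM factors, filterByExpr) with pool as a block, and population contrasts gave the tdTomato, cFos and interaction terms. The naive libraries entered a second fit by sex and population without a block, since no source says which animals they share. The region difference came from a fit of the 48 libraries of the 4 populations, with pool as a block and population within region. P-values were adjusted over all genes tested (Benjamini-Hochberg), at 0.05. DESeq2 1.42.0, limma-voom (limma 3.58.1), DESeq2 size factors, no filter on low counts, no block, a stricter threshold (adjusted p under 0.01 and log2 fold change over 0.75), each sex alone and leaving out libraries or pools were alternatives. The libraries of a replicate number come from the same animals by the sorting design. Their residuals correlated at 0.132, 0.0922, 0.170 and 0.139 on average (female NAc, male NAc, female mPFC, male mPFC), against −0.0457 to −0.0851 between pools.

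The members, roles and marker lists were chosen with earlier results of these data known. The 2 most abundant members of each role, all C1q chains and up to 4 members per test with the smallest adjusted p were given in full. Members counted in the text but outside this rule were named after their values were seen. On simulated counts, the tdTomato fits recovered 98 of 100 genes at a log2 fold change of 1. Those counts had the same spread for every gene and no differences between pools, and only genes above a low level were changed. The rate for low members with a wider spread is not known from them. A replicate is a pool of 3 mice. Some genes that this rule would name are not reported here.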

Additional observations from a re-analysis of the deposited data

Results flagged for a closer look

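Among 200 groups of 6 libraries (member levels and summed levels by population and region), 14 held 1 library far from the other 5, where chance alone gives about 1 in 20 groups. Of these, 7 came from the same library, pool 2 of the female naive mPFC, which was the highest each time. Its members summed to 1250 CPM against 818.5 to 950.6 CPM in the other naive mPFC libraries, its complement genes to 121.8 against 69.39 to 83.38 CPM and its phagocytosis genes to 193.4 against 125.2 to 144.3 CPM. Csf1r was at 128.4 against 71.42 to 87.63 CPM there, C1qa at 37.1 against 21.95 to 26.13 CPM, C1qc at 41.34 against 21.48 to 27.06 CPM and Mertk at 64.67 against 38.32 to 43.78 CPM.

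The other 7 were spread over 7 libraries. The phagocytosis genes summed to 256.1 CPM in overlapping male NAc pool 3, against 163.7 to 194.6 CPM in the other overlapping NAc libraries. The transcription factor genes summed to 67.96 CPM in non-ensemble male mPFC pool 3, against 49.11 to 55.04 CPM. Csf1r stood high in non-ensemble female NAc pool 2 (88.82 against 55.81 to 67.63 CPM) and in sucrose-seeking male mPFC pool 1 (50.58 against 34.93 to 39.74 CPM). Lyn stood high in cocaine-seeking female NAc pool 2 (19.03 against 13.97 to 15.39 CPM). C1qc stood low in sucrose-seeking male NAc pool 2 (8.223 against 14.44 to 18.09 CPM), and Mertk in sucrose-seeking male NAc pool 1 (42.23 against 52.23 to 56.33 CPM).

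The tdTomato difference was larger in cFos-positive than in cFos-negative libraries for 10 members in the NAc and 12 in the mPFC, and smaller for 1 in the NAc and 0 in the mPFC (edgeR, interaction term). P2ry13 was the one in the NAc, and in the mPFC it alone had an unadjusted p under 0.05 with that sign.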

How the results depend on the processing

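Counts of members past the threshold are given against the value reported. Counts over all genes moved with these settings as well, so a lower member count does not by itself set the members apart. Under the stricter threshold they were 18 of 32 (NAc tdTomato), 19 of 32 (mPFC tdTomato), 0 of 7 (NAc cFos), 0 of 2 (mPFC cFos), 1 of 11 and 5 of 12 (interaction, NAc and mPFC), 1 of 12 and 1 of 11 (sucrose-seeking and non-ensemble, NAc and mPFC), 15 of 29 and 17 of 30 (naive, NAc and mPFC) and 0 of 18 (NAc and mPFC). With length-scaled counts they were 19 and 20 (tdTomato), 3 and 0 (cFos) and 3 and 3 (interaction, NAc and mPFC each), and 4 (sucrose-seeking, mPFC). In female libraries alone they were 20 and 21 (tdTomato), 4 and 1 (cFos), 4 (interaction, NAc) and 5 (sucrose-seeking, mPFC). In male libraries alone they were 18 and 17 (tdTomato), 3 and 0 (cFos), 5 and 3 (interaction), 6 and 4 (sucrose-seeking), 18 and 14 (naive) and 3 (NAc and mPFC). In male pools 1 and 3 alone, chosen after the data were seen, they were 8 (mPFC tdTomato), 0 (cFos), 2 (interaction), 3 (sucrose-seeking) and 0 (NAc and mPFC). Without the replicate block the mPFC counts were 0 (cFos), 5 (interaction) and 7 (sucrose-seeking), and the block changed no other count by over 1.5 times. With limma-voom the mPFC cFos count was 4. The mPFC sex count of 0 became 1 with DESeq2 size factors, 4 with DESeq2, 1 with limma-voom and 1 with no filter.

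Leaving out libraries or pools gave 21 to 32 (NAc tdTomato), 26 to 33 (mPFC tdTomato), 5 to 9 and 0 to 4 (cFos), 7 to 11 and 11 to 15 (interaction), 8 to 14 and 8 to 12 (sucrose-seeking), 24 to 29 and 26 to 31 (naive), 13 to 23 (NAc and mPFC) and 0 to 5 (mPFC sex), and 0 between overlapping and cocaine-seeking. The NAc tdTomato count fell to 21 without female pool 1. Over all genes, leaving out a pool gave 92 to 174 in the NAc tdTomato contrast and 125 to 999 in the mPFC one.

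Direction turned with length-scaled counts for Ctsd (0.11) and Lgmn (0.0072) in the NAc cFos contrast, Ctsd (−0.0028), Laptm5 (−0.047) and Itgb5 (−0.060) in the NAc interaction, Ctsd (0.11), Laptm5 (0.32), Itgb5 (0.23) and Ptprc (−0.038) between sucrose-seeking and non-ensemble in the NAc, Itgb5 (0.032) in the mPFC, and Itgb5 (−0.18) between NAc and mPFC. Between NAc and mPFC, Tyrobp and Ptprc turned in male libraries alone (−0.081 and 0.052) and in male pools 1 and 3 (−0.25 and 0.092). The cause was not tested. Members under about 5 CPM have the widest errors.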

Other observations

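Outside the 35 members, some genes had a log2 CPM that followed the mean of the members closely over the 24 libraries of a region, after pool means were taken off. In the NAc they included Golm1 (r = 0.96), Vsir (0.94), Tgfbr1 (0.93), Cmklr1 (0.91), Mpeg1 (0.90), Pld4 (0.90), Itgb2 (0.89) and Slco2b1 (0.88), among 16738 genes of at least 2 CPM. In the mPFC they included Vsir (0.97), Ptgs1 (0.97), Mpeg1 (0.95), Slco2b1 (0.93), Itgb2 (0.93), Sla (0.93), Bin2 (0.92) and Tgfbr1 (0.92), among 18467 genes. Vsir, Tgfbr1, Mpeg1, Itgb2 and Slco2b1 were named in both regions. Mpeg1 encodes perforin-2 of macrophages and Itgb2 the partner chain of Itgam. These are Pearson correlations across libraries that share pools and populations, and are given as a description.

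The activated microglial genes Apoe and Ctsb, which astrocytes and other cells make too, were lower in sucrose-seeking than in non-ensemble libraries, Apoe by −0.88 in the NAc and −0.57 in the mPFC and Ctsb by −0.66 and −0.47. Flt1 (1.26 and 0.97) and Slco1a4 (1.56 and 1.09), which are endothelial genes, were higher in the same comparison.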
